A study of Homo sapiens with 5 samples.

Results

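CDKN1A (Entrez gene 1026) and GADD45A (Entrez gene 1647) are 2 p53-induced genes of growth arrest and the DNA damage response. They were taken as all probes that the platform annotation, with current symbols, assigns to either gene. That gave 3 of the 11184 probes in the authors' deposited table of log2 values, 1 for CDKN1A and 2 for GADD45A, and 2 of 8127 named genes. Both genes were chosen on their difference between pull-down and mock arrays, as read from these same probes, so their values are given as a description and carry no test. RNA of HEK293T, a line derived from human embryonic kidney that expresses the SV40 large T antigen, was measured on 5 Illumina expression arrays. In 2 arrays the cells had received a synthetic biotin-labelled miR-182-5p duplex, at 200 pmol, and the microRNA with its bound transcripts had been captured on streptavidin beads 24 h later (the miR-182 pull-down). In the other 3 arrays the cells were mock-transfected and labelled as having no pull-down, but their protocol field also describes the beads. The bead capture and the microRNA therefore cannot be told apart in this comparison. Separate cultures are not stated for any array, so all p-values below reflect the spread of these 5 arrays alone, and that spread may be technical.

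CDKN1A encodes p21, an inhibitor that binds cyclin-dependent kinases and halts the cell cycle, and that also binds the replication clamp PCNA. GADD45A encodes a small acidic protein without enzyme activity that binds MAP3K4, PCNA and the CDK1-cyclin B kinase, and that has roles in stress signalling, the G2/M checkpoint and DNA repair. Both genes are classic targets of the transcription factor p53, and both have short-lived transcripts that RNA-binding proteins stabilise or destabilise. In HEK293T cells the large T antigen binds p53 and impairs its activity. A microRNA recognises transcripts mainly by pairing of its seed, bases 2 to 8 from its 5′ end, and a biotin-tagged microRNA can be recovered on streptavidin together with the transcripts it holds.

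The sequence that defines the treatment is that of miR-182-5p, printed here from RefSeq (GRCh38.p14, chr7:129770447-129770470, minus strand) with the seed in capitals. The mature microRNAs in that table that share its bases 2 to 7 are miR-96-5p, from the same stretch of chromosome 7 (chr7:129774739-129774761, minus strand), and miR-1271-5p (chr5:176367960-176367981, plus strand).
hsa-miR-182-5p: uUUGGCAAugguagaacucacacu
hsa-miR-96-5p: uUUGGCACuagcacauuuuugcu
hsa-miR-1271-5p: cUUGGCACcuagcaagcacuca
No other mature microRNA in the table has the seed UUGGCAA of miR-182-5p in full. A transcript that pairs with all 7 seed bases holds the complement UUGCCAA. The transcripts of CDKN1A and GADD45A were not searched for it, because their sequences were not used here.

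CDKN1A was higher in the miR-182 pull-down. Its probe read 9.66 and 9.80 in pull-down arrays 1 and 2. It read 8.51, 8.66 and 8.33 in mock arrays 1, 2 and 3. The 2 pull-down values lay together above the 3 mock values, and the groups did not overlap. The means were 9.73 ± 0.10 (SD, n = 2) and 8.50 ± 0.16 (SD, n = 3), a difference of 1.23 on the log2 scale or 2.35-fold. Setting each pull-down array against each mock array gave 6 differences, which ran from 1.00 to 1.47. In bulk RNA, more transcript per cell, more recovered transcript and a different mixture of cells cannot be told apart.

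GADD45A was higher at both of its probes. The brighter probe read 10.13 and 10.37 in the pull-down arrays, against 9.08, 8.97 and 8.84 in mock arrays 1, 2 and 3. Its means were 10.25 ± 0.17 (SD, n = 2) and 8.96 ± 0.12 (SD, n = 3), a difference of 1.29 or 2.44-fold, and the groups did not overlap. The dimmer probe read 9.14 and 9.41 in the pull-down arrays, and 8.34, 8.42 and 8.39 in the mock arrays. Here too both pull-down values were above every mock value, while the 3 mock values lay within 0.08 of each other. The means of the dimmer probe were 9.28 ± 0.19 (SD, n = 2) and 8.38 ± 0.04 (SD, n = 3), a difference of 0.89 or 1.86-fold. The 6 differences between single arrays ran from 1.05 to 1.53 at the brighter probe and from 0.72 to 1.08 at the dimmer one. The 2 probes thus gave the same direction with different sizes, and the mean of both was 1.09.

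**Figure D1:**
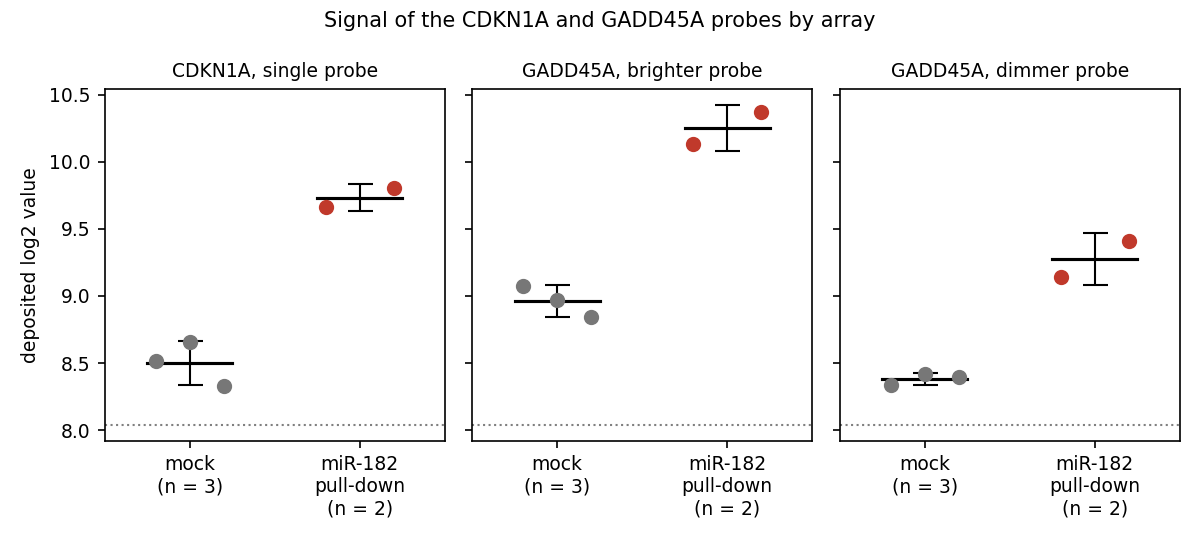
Deposited log2 values (vertical axis) of the CDKN1A probe and the brighter and dimmer GADD45A probes in each mock array (grey, n = 3) and miR-182 pull-down array (red, n = 2); horizontal bars are means, error bars are 1 SD, and the dotted line is the highest of the 5 arrays' lowest values (8.04). In all 3 panels both red points lie above all grey points, and the dimmer GADD45A probe has the smallest difference (0.89).

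Such separation was common in these data. Of all 8127 genes, 35.0% had both pull-down values above all mock values and 30.1% had both below, so separation alone did not set CDKN1A and GADD45A apart. The difference of GADD45A was in rank 197 and that of CDKN1A in rank 220 among the 8127 genes, and 2.41% and 2.69% of genes had larger positive differences. Among all probes, 6.62% had a larger difference than the dimmer GADD45A probe. The median difference over all genes was 0.02.

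The values have a lower limit near 8, and the 3 probes were closer to it in the mock than in the pull-down. In the mock arrays CDKN1A lay 0.30 to 0.61 above the lowest value of the array, where 34.2% to 47.9% of all probes were dimmer. In the pull-down arrays 72.0% to 74.6% of probes were dimmer than CDKN1A. The brighter GADD45A probe was 0.81 to 1.06 above the array's lowest value in the mock and the dimmer one 0.32 to 0.38. For the brighter probe 51.7% to 58.2% of probes were dimmer in the mock and 79.9% to 83.4% in the pull-down. The dimmer probe moved from 33.5% to 40.5% in the mock to 60.4% to 66.6% in the pull-down. Whether the lower limit shortened these differences was not tested. A share of 14.9% to 15.4% of probes in the pull-down arrays and 19.9% to 26.7% in the mock arrays was within 0.1 of the array's lowest value.

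**Figure D2:**
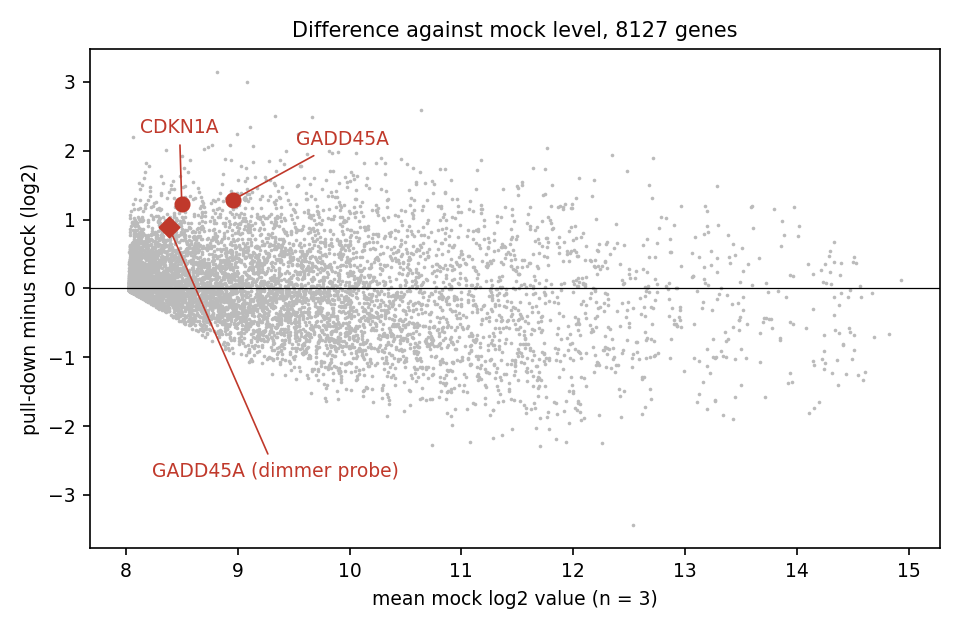
Difference between pull-down and mock means (vertical axis, log2) against the mean mock log2 value (horizontal axis) for the probe that stands for each of 8127 genes (grey), with CDKN1A and the brighter GADD45A probe as red circles and the dimmer GADD45A probe as a red diamond. The sloping lower edge at the left is the lower limit of the values near 8; CDKN1A (1.23) and GADD45A (1.29) sit in the upper part of the cloud at mock levels of 8.50 and 8.96.

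Within the pull-down group the 3 probes had the same order of arrays, and within the mock group they did not. Pull-down array 2 was above array 1 by 0.14 for CDKN1A, 0.24 for the brighter GADD45A probe and 0.27 for the dimmer one, against a median of 0.00 over all probes. The spread of the mock arrays, highest minus lowest, was 0.33 for CDKN1A, 0.24 for the brighter GADD45A probe and 0.08 for the dimmer one. Every one of these within-group gaps was smaller than the gap between the groups, which was 1.00 for CDKN1A, 1.05 for the brighter GADD45A probe and 0.72 for the dimmer one. Because both genes were chosen on the group difference, this comparison and the ranges that follow are a description only. How many of all genes have such gaps was not counted. Leaving out any 1 array kept the difference of CDKN1A between 1.15 and 1.31, and that of the brighter GADD45A probe between 1.17 and 1.41. For the dimmer GADD45A probe the range was 0.76 to 1.03.

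Likeness to other genes was measured as the Euclidean distance between log2 profiles over the 5 arrays after subtracting each gene's mean. The profile nearest to that of CDKN1A among 8045 genes was that of H3P6, a histone H3 pseudogene, at a distance of 0.08. KLHL18, an adaptor of cullin ubiquitin ligases, followed at 0.15 and ZSWIM1 at 0.16. For GADD45A the nearest was PARN, a poly(A)-specific ribonuclease, at 0.05, with a difference of 1.30 between groups. PAK2, a p21-activated kinase named for another p21 protein than that of CDKN1A, was at 0.07, and DCLRE1A, a nuclease of DNA crosslink repair, at 0.08. CDKN1A and GADD45A were 0.21 apart, which placed GADD45A in rank 9 from CDKN1A and CDKN1A in rank 17 from GADD45A. With 5 arrays in 2 groups, such a distance mostly reads the size of the group difference and the order of the arrays within groups.

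The closest measured relatives of both genes did not pass the test with 1 probe per gene, and neither did most of all genes. All 8127 genes were tested with limma, and calls were made at a Benjamini-Hochberg adjusted p under 0.05. By that rule 20.2% of all genes were higher and 15.0% lower. Of the 4 other CDK inhibitors with a probe, 0 were called in either direction by limma, and the median of their differences was 0.18. At an unadjusted p under 0.05, 1 was higher and 0 were lower. There was 1 higher call without pull-down array 2 and 1 lower call without mock array 3. CDKN1B, which encodes p27, the nearest relative of p21 measured here, was at 9.79 ± 0.24 (SD, n = 2) in the pull-down and 9.27 ± 0.29 (SD, n = 3) in the mock (limma, Benjamini-Hochberg adjusted p = 0.120). Its other probe gave a difference of 0.94, and with both probes averaged CDKN1B was called higher (0.73, limma, Benjamini-Hochberg adjusted p = 0.00977). CDKN1C and the INK4 gene CDKN2C had no probe in the values used here. CDKN2A, which encodes p16 and ARF, was at 8.21 ± 0.01 (SD, n = 2) against 8.84 ± 0.51 (SD, n = 3), with a wide spread in the mock.

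GADD45B, a paralog of GADD45A induced by stress and cytokines, was at the lower limit in both groups, with 8.01 ± 0.01 (SD, n = 2) in the pull-down and 8.08 ± 0.05 (SD, n = 3) in the mock. At that level a change can hardly be read. GADD45GIP1, which encodes a mitochondrial ribosome protein that binds GADD45 proteins, was at the lower limit in both pull-down arrays against 8.22 ± 0.12 (SD, n = 3) in the mock, and did not pass (limma, Benjamini-Hochberg adjusted p = 0.123). With an intensity-dependent variance prior it was called lower (limma, Benjamini-Hochberg adjusted p = 0.0163). GADD45G had no probe in the values used here. Over the GADD45 family and its partners, 1 of 9 measured genes was higher (11.1%, against 20.2% of all genes) and 2 were lower (22.2%, against 15.0%), with a median of -0.06. The higher gene was AURKA, a mitotic kinase whose activity GADD45A is reported to restrain, at 12.23 ± 0.00 (SD, n = 2) against 10.86 ± 0.10 (SD, n = 3). That is 2.60-fold, with an adjusted p of 0.00281 by limma with Benjamini-Hochberg adjustment and a log2 difference of 1.38 (SE 0.08). The other AURKA probe gave 1.44.

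Among the kinases, cyclins and clamp that p21 binds, calls went in both directions. Most of these genes did not pass the test, and neither did most of all 8127 genes. Of 11 measured partners 1 was higher (9.09%, against 20.2% of all genes), 3 were lower (27.3%, against 15.0%) and 7 did not pass. Their median difference was 0.26. CDK6, a G1 kinase, had a log2 difference of 1.22 (SE 0.13) or 2.33-fold, and an adjusted p = 0.00566 by limma with the Benjamini-Hochberg method. PCNA, bound by both p21 and GADD45A, fell by 0.81 (SE 0.13) with 11.16 ± 0.10 (SD, n = 2) in the pull-down and 11.97 ± 0.19 (SD, n = 3) in the mock. Its other probe gave -0.11, and its call was lost when pull-down array 1 or 2 was omitted. The cyclin CCNA2 fell by 0.77 (SE 0.08) and kept its call in all 13 alternatives. CCNB1, the cyclin of the CDK1 complex that GADD45A binds, fell by 0.43 (SE 0.09) and was called in 6 of 13 alternatives; among the fits that omit an array, only the one without pull-down array 2 kept it. CDK1 itself, CDK2, CDK4, CCND1, CCND2, CCND3 and CCNE1 did not pass. Without pull-down array 1 the p21 partners had 1 lower call, and without mock array 2, mock array 3 or pull-down array 2 they had 2. Without mock array 2 they had 2 higher calls. The lower calls of the GADD45 group numbered 0 without pull-down array 1 and 1 without any other array.

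Other p53-induced genes showed no common direction. Of 59 genes in the list 30 had a probe, and of these 5 were higher, 2 were lower and 23 did not pass. The share of higher calls was 16.7% against 20.2% of all genes, and that of lower calls 6.67% against 15.0%. The list had a median of -0.04, against 0.02 over all genes, and its largest positive difference with 1 probe per gene was 0.84. CDKN1A and both GADD45A probes were above that, but they were chosen for their size. Further probes of genes in the list could also exceed 0.84, and those of ZMAT3 gave 0.99 and 0.96. Both arrays of the pull-down were above all mock arrays in 9 of the 30 genes and below in 12, beside 35.0% and 30.1% of all genes. MDM2, which encodes a ubiquitin ligase, and the sestrin genes SESN1 and SESN2 had no probe in the values used here.

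The 5 higher genes of the p53-induced list have different roles. SCO2, a copper chaperone of cytochrome oxidase assembly, was at 10.86 ± 0.01 (SD, n = 2) against 10.02 ± 0.30 (SD, n = 3), a difference of 0.84 (SE 0.19). BAX, an effector of mitochondrial apoptosis, was 1.71-fold higher at 0.77 (SE 0.14), and its other probe gave 0.75. PTP4A1, a phosphatase, had 0.72 (SE 0.07), but 0.04 at its other probe. STEAP3, a metalloreductase, and TRAF4, a signalling adaptor, had 0.36 (SE 0.08) and 0.33 (SE 0.06) from mock levels of 8.08, close to the lower limit. Adjusted p-values of the 5 ran from 0.00484 for PTP4A1 to 0.0291 for STEAP3 (limma, Benjamini-Hochberg). PTP4A1 kept its call in the 12 alternatives that tested it. BAX lost its call when mock array 1 or pull-down array 2 was left out, and SCO2 when mock array 3 or either pull-down array was. TRAF4 was called only with mock array 3 left out among the 5 such fits, and STEAP3 only with pull-down array 1 left out. The list had 2 higher calls when mock array 1 or pull-down array 2 was omitted, and 3 when mock array 2 or pull-down array 1 was.

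The 2 lower genes of that list were ZMAT3 and RPS27L. ZMAT3, an RNA-binding zinc finger protein gene, read 11.61 and 11.57 in the pull-down arrays against 12.53, 13.09 and 13.76 in the mock arrays at its brightest probe, a difference of -1.53 (SE 0.38). Limma gave it an adjusted p = 0.0368 by the Benjamini-Hochberg method, a call lost without mock array 2 or either pull-down array. Its other probes went the opposite way, with 0.99 and 0.96, and the mean of all its probes gave 0.14, so no direction can be given for ZMAT3 as a gene. RPS27L, a ribosomal protein gene, was at 9.88 ± 0.48 (SD, n = 2) against 11.14 ± 0.21 (SD, n = 3), a fall by 1.27 (SE 0.25). Whether its single probe shares signal with the related gene RPS27 was not tested. RPS27L was not called without mock array 1, mock array 2 or pull-down array 2. The list had 0 lower calls when pull-down array 2 was omitted, and 1 when mock array 2 was.

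**Figure D3:**
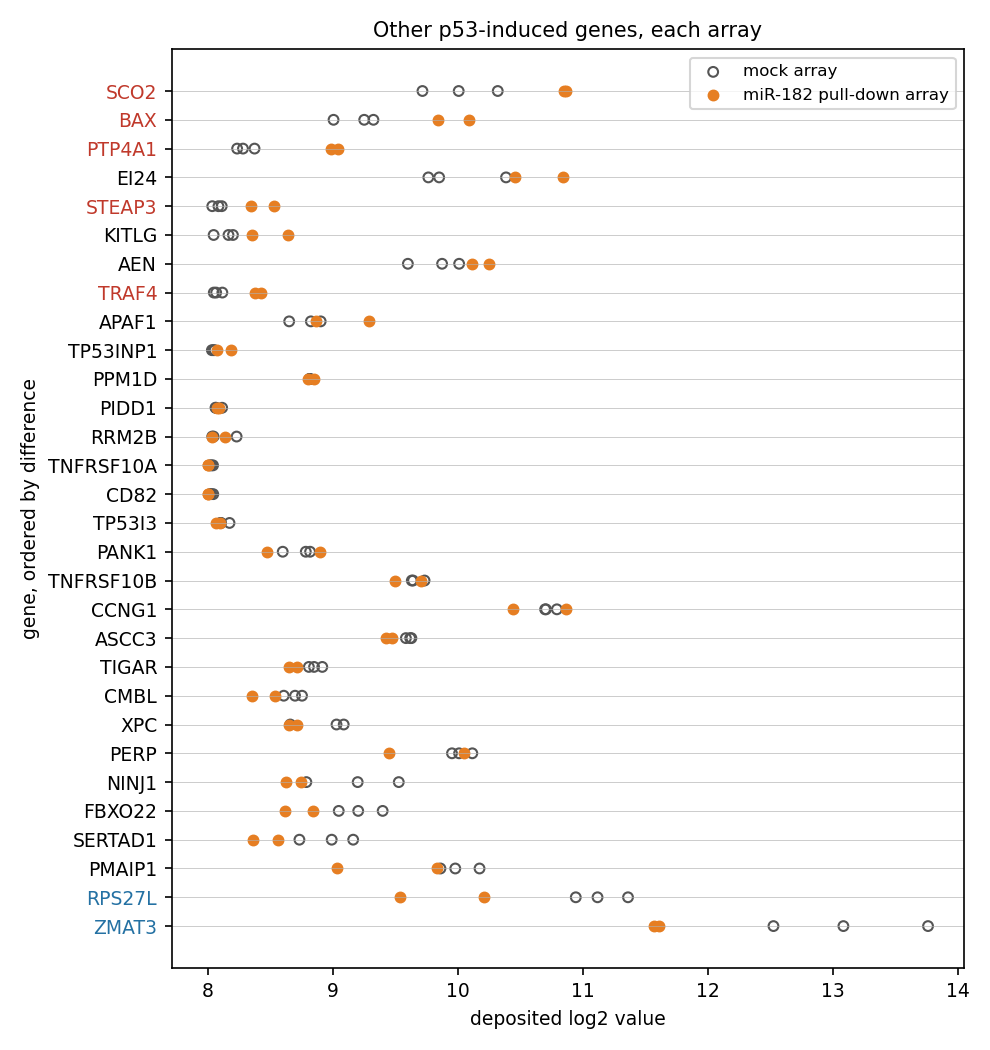
Deposited log2 values (horizontal axis) of the 30 measured other p53-induced genes in each mock array (open circles, n = 3) and miR-182 pull-down array (orange, n = 2), ordered by difference; gene names in red were called higher and in blue lower by limma. Genes with a difference near 0 fill the middle, and ZMAT3 and RPS27L at the bottom are blue. The 5 red names are in the upper part, with EI24, KITLG and AEN, which were not called, among them.

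Among the regulators of p53 with a probe, 3 of 15 were higher and 1 was lower. These shares of 20.0% and 6.67% stood beside 20.2% and 15.0% of all genes, and the median was 0.12. HIPK2, a kinase that phosphorylates p53, was higher by 1.05 (SE 0.11) or 2.07-fold, and its second probe gave 1.13 (adjusted p = 0.00531 for the first by limma with the Benjamini-Hochberg method). The checkpoint kinase gene CHEK2 was higher by 0.90 (SE 0.15) and the p53-binding protein gene TP53BP1 by 0.68 (SE 0.17). RPL11, a ribosomal protein that binds and inhibits MDM2, fell by 0.83 (SE 0.11). Whether its probes share signal with processed pseudogenes was not tested. TP53BP1 was not called with any 1 of the 5 arrays left out. Higher calls numbered 2 in each of those 5 fits, and lower calls numbered 2 without pull-down array 1 or mock array 2.

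Of the 14 measured genes for transcription factors and cofactors reported to act on CDKN1A or GADD45A, 7 were higher (50.0%, against 20.2% of all genes), 1 was lower (7.14%, against 15.0%) and 6 did not pass. The median was 0.26. ATF4, a stress factor, was at 14.78 ± 0.24 (SD, n = 2) against 13.29 ± 0.10 (SD, n = 3), a difference of 1.49 (SE 0.13), although its other probes gave -0.08 and 2.50. FOXO3, a forkhead activator of both genes, had 1.28 (SE 0.20) and BRCA1, a repair protein reported to act on GADD45A transcription, 1.02 (SE 0.18). Their other probes gave 0.71 for FOXO3 and 1.35 for BRCA1. MYC, a repressor of CDKN1A, fell by 1.59 (SE 0.11), from 10.29 ± 0.12 (SD, n = 3) to 8.71 ± 0.16 (SD, n = 2). The other MYC probe gave -1.12. Adjusted p-values of the 4 ran from 0.00308 for MYC to 0.0159 for BRCA1 (limma, Benjamini-Hochberg). The count of higher genes was 2 when mock array 2 was omitted, and it also fell without either pull-down array. Higher calls over all genes fell too, from 1640 to 989 without mock array 2. The list lost a larger part of its higher calls in that fit than all genes did. The excess of 50.0% over 20.2% thus depended on the arrays included. BRCA1 lost its call without mock array 2 or pull-down array 2, and FOXO3 without pull-down array 1.

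Of 8 genes for RNA-binding proteins of the CDKN1A or GADD45A transcripts, 1 was higher, 0 were lower (0 also at an unadjusted p under 0.05 by limma) and 7 did not pass, with a median of -0.0011. The higher share was 12.5%, against 20.2% of all genes. ELAVL1, whose product HuR stabilises CDKN1A mRNA, was 1.62-fold higher, at 8.87 ± 0.17 (SD, n = 2) against 8.17 ± 0.08 (SD, n = 3). That mock level was close to the lower limit of the values. RBM38, a p53 target whose product also stabilises CDKN1A mRNA, and HNRNPD, whose product binds and destabilises GADD45A mRNA, did not pass. Genes for the ubiquitin ligases and the proteasome activator that remove p21 moved in both directions, with 4 of 8 higher (50.0%, against 20.2% of all genes) and 3 lower (37.5%, against 15.0%). Their median was 0.65. SKP1, a subunit of the SCF ligase, had a log2 difference of 1.69 (SE 0.15) or 3.22-fold, and an adjusted p = 0.00426 by limma with the Benjamini-Hochberg method. SKP2, its subunit for p21 and p27, was 2.26-fold higher and the proteasome activator PSME3 2.24-fold. The other SKP2 probes gave log2 differences of 1.61 and 0.58, and the other PSME3 probe 1.23. CDC20, an activator of the anaphase-promoting complex, fell by 1.14 (SE 0.28), the SCF scaffold CUL1 by 0.79 (SE 0.15) and CUL4A, scaffold of another p21 ligase, by 0.41 (SE 0.05). CDC20 kept its call only without mock array 3 among the fits that omit an array, and CUL1 only without mock array 2 or mock array 3. This group had 1 lower call without mock array 1 or either pull-down array, and 2 without mock array 2.

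**Figure D4:**
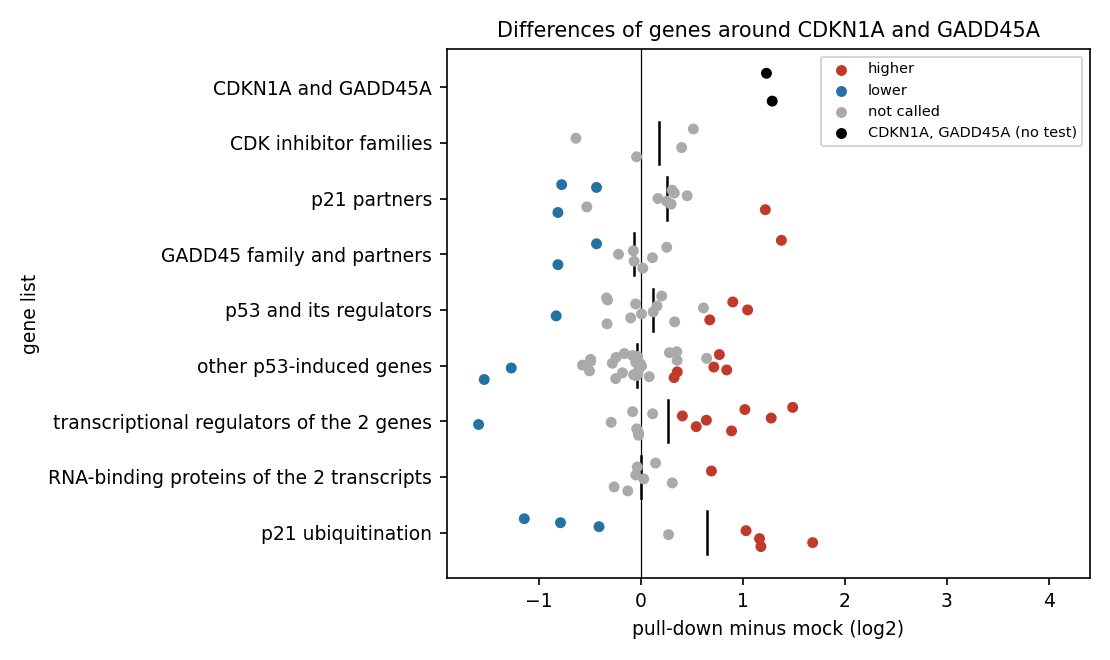
Difference between pull-down and mock (horizontal axis, log2) for CDKN1A and GADD45A (black, no test) and for each measured gene of 8 lists (red, called higher; blue, called lower; grey, not called by limma), with the list medians as vertical bars. CDKN1A (1.23) and GADD45A (1.29) were chosen for their difference; the 30 other p53-induced genes have a median of -0.04; PCNA, CCNB1, CDK1 and PPM1D each appear in 2 lists, and no list was tested as a set.

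The 5 arrays had medians between 8.72 and 8.81. Across probes, which are not independent replicates, the correlation r was 0.978 to 0.987 within a group and 0.885 to 0.904 between groups. Of 8 markers fixed for HEK293 cells 6 had a probe. VIM, which encodes vimentin, read 13.04 to 13.76 in every array and NEFM, a neurofilament gene, 8.83 to 8.97. The other measured markers were dimmer: KRT8 read 8.23 to 8.66 and NEFL 8.06 to 8.32, while KRT18 and GATA3 were at the lower limit. PAX2 and LHX1 had no probe in the values used here. Of 12 markers of other cell types 1 had a probe, COL1A1, which was at the lower limit in every array. No marker was called between groups by limma, and 0 passed at an unadjusted p under 0.05.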

How the data were processed

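Titles in the labels put 2 arrays in the miR-182 pull-down group and 3 in the mock group. The authors' deposited table gives log2 values, up to 15.2, for 11184 probes; base 2 was inferred from their range. Lumi 2.2.1 is listed with no role, per the submitters' processing notes; how background, normalization and filtering were handled is not given in the sources used here. A second table of unnormalized signals was not used, since its 10 columns of per-sample values carry no sample label. It holds 39408 probes, all 11184 of the first table among them, and how those 11184 were selected is not given. Shares over all genes therefore refer to that smaller set.

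Probes were named by the platform annotation, with symbols updated by Entrez identifier in a RefSeq gene table (GRCh38.p14): 1 symbol was found for 10040 probes, several for 1 and none for 1143. The probe with the highest mean stood for each of 8127 genes. No further normalization or filter was applied. All 8127 genes were tested with limma 3.58.1 (lmFit, then eBayes, in R 4.3.3). The test was 2-sided with group alone in the model, 3 residual degrees of freedom and Benjamini-Hochberg adjustment over all genes. This procedure was tested on simulated data. CDKN1A and GADD45A were part of this fit and of the shares over all genes, but no test result is given for them. With so few arrays the smallest p that an exact permutation test allows for 1 gene is 0.1, and precision is limited by their number. The genes, the 8 lists and the alternatives were chosen with earlier results of these data known. Genes named are the relatives and p53 genes given above, and the largest called differences of each list in each direction (up to 6 for p53-induced genes, up to 3 otherwise); others are named after their values were seen. Alternatives were other scalings, a filter, other probe rules, a trended prior, a replicate block and leaving out each array. No list was tested as a set.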

Additional observations from a re-analysis of the deposited data

How the results depend on the processing

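The differences of CDKN1A and of the brighter GADD45A probe stayed positive in every alternative that gave a value. Averaging both GADD45A probes gave 1.09. Scaling by the median, the 75th percentile or quantiles gave 1.19 to 1.25 for CDKN1A and 1.25 to 1.31 for GADD45A. CDKN1A had a mean log2 value under 9, so the filter on dim genes gave no value for it. With 1 array left out, all genes had 958 to 1379 higher and 638 to 1205 lower calls, against 1640 and 1215. Over the same fits, other p53-induced genes had 2 to 4 higher and 0 to 3 lower, p53 regulators 2 higher and 1 to 2 lower, and the 6 remaining lists pooled 9 to 13 higher and 3 to 7 lower, against 14 and 7. Fits without 1 pull-down array take the lone array to vary like the mock arrays. Among the 3831 genes with a mean of at least 9, 954 were higher and 1116 lower, so that lower calls outnumbered higher ones; of 12 p53-induced genes there, 3 were higher and 4 lower. Quantile scaling gave 5 lower p53-induced genes and 2 lower p53 regulators, and median centring gave 3 lower regulators. Averaging probes gave 1 lower p53-induced gene and 3 lower regulators, and turned ZMAT3 to 0.14. Causes of these shifts were not tested.

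Same-numbered arrays deviated from their group means together with r = 0.02 and 0.07 over probes, in only 2 pairs. With 2 pull-down arrays these deviations mirror each other, so whether the replicate numbers pair the arrays cannot be told from them. With the replicate block, CDKN1A had a difference of 1.15 and GADD45A 1.23. These equal the differences without mock array 3, because that array has no same-numbered pull-down array. The block leaves 1 residual degree of freedom. The block left 3 p53-induced genes and 1 p53 regulator higher. All genes then had 1289 higher and 1132 lower calls. With a trended variance prior the counts over all genes were 2055 and 1421.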
